A study of Mus musculus with 6 samples.

Results

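Interferon-stimulated genes were followed in 6 mouse cells as a list of 32 genes named by symbol, and all 32 were found among the 44804 rows kept from the deposited table. The list covers sensors of viral RNA, signalling factors, enzymes and proteins that act on RNA or nucleotides, membrane proteins, GTPases and a small remainder. The cells came from 3 mice, labelled 1157, 1168 and PDGF1. Each mouse gave 1 circulating tumor cell (CTC), which is a tumor cell found in blood, and 1 tumor cell. That makes 3 CTCs and 3 tumor cells with no treatment named in the labels; the genotype, strain and age of the mice and how the tumors arose are not given in the sources used here. The series text speaks of 6 single cells; the tumor cells' own source labels lack the word single, and if such a sample held more than 1 cell, fewer expressing cells and less RNA per cell cannot be told apart. Per the labels' protocols, mRNA was amplified linearly by repeated rounds of cDNA synthesis and transcription before stranded sequencing libraries were made. Every group is 1 cell per mouse, so each test measures the spread between these cells.

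Interferons are secreted proteins that bind paired receptors on the cell surface. Receptor-bound kinases then phosphorylate STAT proteins, which with IRF9 bind the interferon-stimulated response element in the promoters of antiviral genes, or as pairs without IRF9 bind the gamma-activated site. The induced proteins sense viral RNA, block entry, translation and replication of viruses, and feed back on the pathway itself. Macrophages and microglia are known for strong induction of these genes, and many other cell types induce them too.

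Values are FPKM, a count of sequenced fragments corrected for transcript length and library depth. Depth was recovered from the steps between low values and came to roughly 11600000 to 56600000 mapped fragments per cell, so 1 fragment on 1 kilobase was worth 0.0177 to 0.0863 FPKM. Both cells of mouse 1168 stood apart from the other cells: 1 FPKM was reached by 46.6% of named protein-coding genes in its CTC and by 53.8% in its tumor cell, against 5.1% to 17.1% in the other 4 cells. The 99th percentile of olfactory and vomeronasal receptor genes, which cells outside the nose should lack, was 0.135 to 7.03 FPKM. Markers of glioma and oligodendrocyte progenitors at 1 FPKM or more numbered 4, 12 and 0 of 12 in the CTCs (mice 1157, 1168 and PDGF1, an order kept in every list of values below). In the tumor cells they numbered 4, 10 and 1 of 12.

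Short stretches of the members' promoters are shown because the list is defined by induction through these elements. The windows were RefSeq's (GRCm38.p6), from 250 bases before to 50 bases after a gene's start, and 24 of the 32 members had one. Usp18, Parp9, Parp14, Oas2, Rtp4, Mx1, Mx2 and Ifi27 were without a window. The core of the interferon-stimulated response element was searched as GAAANNGAAA on both strands. The 6 members below are those of highest FPKM, at 10 FPKM or more in any cell, whose window held it. Capitals mark the matches, and each stretch is written 5′ to 3′ on the gene's strand.
Ifitm3, chr7:141010714-141010743, minus strand: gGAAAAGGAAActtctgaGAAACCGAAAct
Ifit3, chr19:34583363-34583426, plus strand: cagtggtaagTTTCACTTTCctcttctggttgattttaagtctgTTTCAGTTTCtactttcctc
Ifit1, chr19:34640775-34640823, plus strand: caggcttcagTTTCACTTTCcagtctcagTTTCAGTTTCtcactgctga
Ifitm2, chr7:140955988-140956017, minus strand: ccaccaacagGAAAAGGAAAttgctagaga
Ddx58, chr4:40239804-40239833, minus strand: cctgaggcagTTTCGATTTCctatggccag
Rsad2, chr12:26456553-26456582, minus strand: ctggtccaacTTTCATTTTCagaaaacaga

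Ifit1 and Ifit3, both on chromosome 19, each carried a pair of matches before the start, at 104 and 85 bases for Ifit1 and at 156 and 122 bases for Ifit3. In Ifitm2 the match lay 46 bases before the start and in Rsad2 120 bases before it, whereas the matches of Ifitm3 (bases 3 and 20) and Ddx58 (base 3) began inside the transcript. The core was found in 15 of the 24 members with a window (62.5%), and in 1079 of all 27025 genes with one (3.99%). The gamma-activated site, searched as TTCNNNGAA, which reads the same on both strands, was found in 8 of 24 members (33.3%) and in 9.55% of all genes with a window. In Ifitm3, Bst2, Oas1a and Eif2ak2 the windows held both motifs. A match is a description of letters in a window and not evidence of binding.

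Several members lie together in the genome (GRCm38, GENCODE coordinates of whole genes). Ifit2 (chr19:34550694-34576419), Ifit3 (chr19:34583531-34588731) and Ifit1 (chr19:34640871-34650009) follow each other on the plus strand. Parp14 (chr16:35832874-35871544), Dtx3l (chr16:35926511-35939151) and Parp9 (chr16:35938470-35972605) lie side by side, with Mx1 and Mx2 further along the same chromosome. Gbp3 (chr3:142560026-142573209) and Gbp2 (chr3:142620602-142638008) are close, as are Ifitm2 (chr7:140954837-140955987) and Ifitm3 (chr7:141009586-141010770). Of the members with the highest values, Rtp4 is at chr16:23520291-23614222, Ifi27 at chr12:103434211-103440239 and Usp18 at chr6:121245906-121270917.

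In the comparison of CTCs with tumor cells, which the study's design implies, no member separated the groups. The highest levels lay mostly in 1 mouse: 28 of 32 members had their highest FPKM in a cell of mouse 1168, 23 in its tumor cell and 5 in its CTC. The share of all genes that peaked in that mouse was not computed, so this count is not a trait of the members. Members at 1 FPKM or more numbered 2, 13 and 1 in the CTCs and 4, 27 and 3 in the tumor cells. Of named protein-coding genes 11.1%, 46.6% and 5.1% reached 1 FPKM in the CTCs and 17.1%, 53.8% and 10.8% in the tumor cells. At 5 FPKM or more the members numbered 0, 6 and 0 against 0, 19 and 2, and the share of all genes was not computed. Against the receptor genes' 99th percentile of the same cell they were 2, 16 and 0 against 1, 27 and 2. Of all named protein-coding genes, 14%, 58.0% and 1.9% lay above that percentile in the CTCs and 8.8%, 47.8% and 1.5% in the tumor cells, so few genes of any kind stood above this background in mice 1157 and PDGF1. The heatmap of FPKM by cell shows this.

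**Figure D1:**
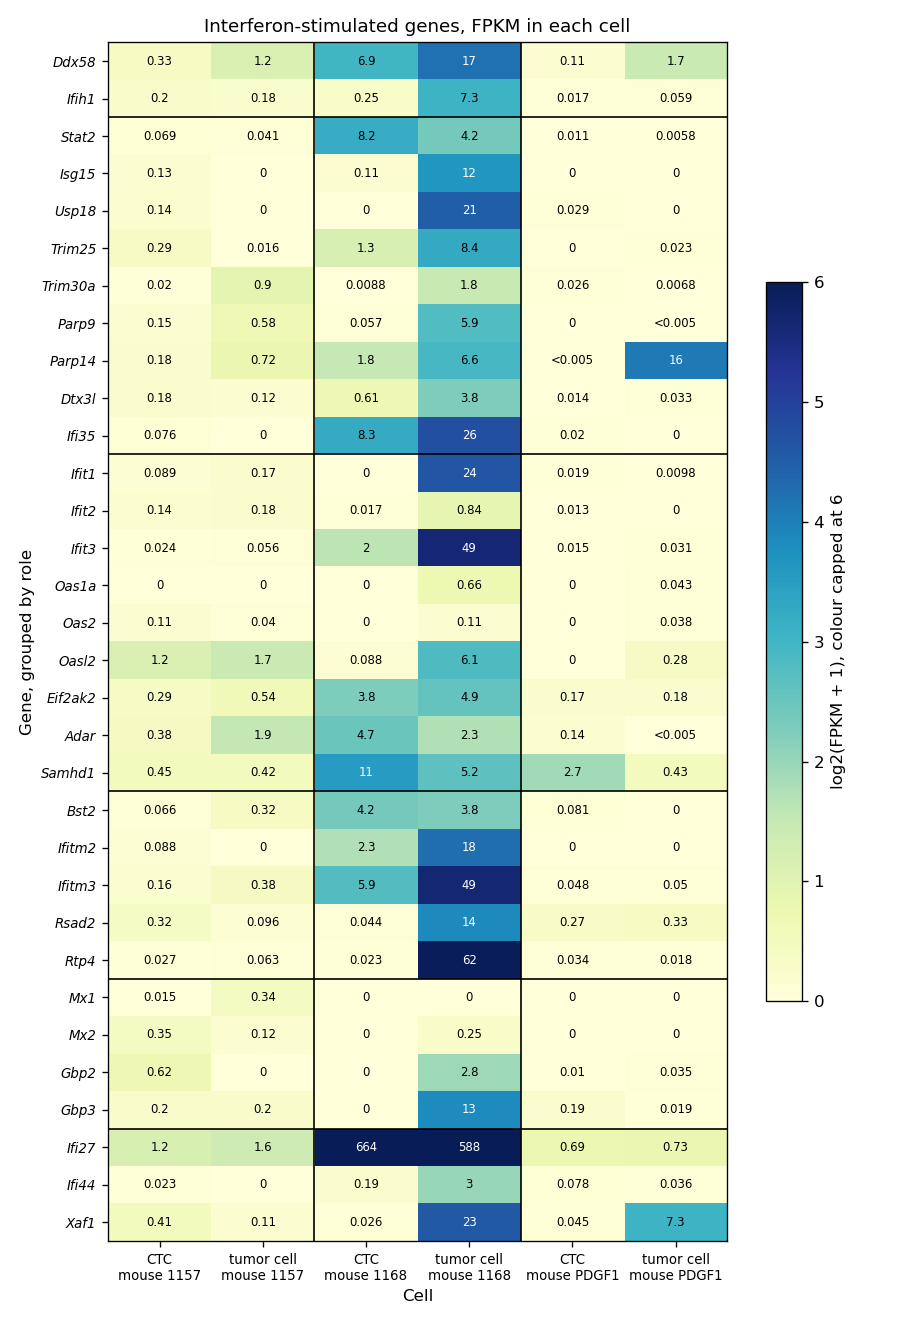
FPKM of each interferon-stimulated gene (rows, grouped by role with horizontal lines) in each of the 6 cells (columns, in pairs by mouse); colour is log2(FPKM + 1), capped at 6, and the printed numbers are FPKM. The tumor cell of mouse 1168 had 27 of 32 members at 1 FPKM or more and the CTC of the same mouse had 13, while the other 4 cells had 1 to 4.

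Summed over the list, the members came to 7.95, 725.6 and 4.73 FPKM in the CTCs and 11.97, 983.2 and 27.47 FPKM in the tumor cells. The tumor cell had the higher sum in each mouse. In mouse PDGF1 most of the tumor cell's sum came from Parp14 (16.15 FPKM) and Xaf1 (7.28 FPKM), so that sum does not describe the list as a whole. The median member was at 0.154, 0.153 and 0.0180 FPKM in the CTCs and at 0.1455, 6.33 and 0.0269 FPKM in the tumor cells. Ifi27 alone made up most of the sum in both cells of mouse 1168; without it the sums were 6.73, 61.4 and 4.04 FPKM in the CTCs and 10.4, 395.2 and 26.8 FPKM in the tumor cells. The mean of the CTCs minus that of the tumor cells was -94.8 FPKM over all members, and it turned to 226.4 without the tumor cell of mouse 1168, to 24.3 without the CTC of 1157 and to 25.9 without the CTC of PDGF1. Because the named protein-coding share of FPKM ran from 11.3% to 85.4% across cells, the sums were also taken as a percentage of the FPKM of those genes: 0.0065%, 0.117% and 0.0891% in the CTCs and 0.0835%, 0.221% and 0.238% in the tumor cells. On that scale, too, each tumor cell was above the CTC of its mouse, in PDGF1 again mostly through Parp14 and Xaf1. The 2 cells of mouse 1168 no longer stood apart from all others. Without Ifi27 the percentages were 0.0055%, 0.0099% and 0.0761% in the CTCs and 0.0725%, 0.089% and 0.232% in the tumor cells. The CTC of 1168 then lay below every cell but the CTC of 1157.

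Only 6 of the 32 members reached 1 FPKM in 3 or more cells and could be tested across the groups: Ddx58, Parp14, Oasl2, Adar, Samhd1 and Ifi27. In limma on log2(FPKM + 1) none of the 6 passed an adjusted p of 0.05 and none had an unadjusted p under 0.05; over all 4165 genes tested, 0 passed after adjustment (0%) and 7 without it (0.168%). Of the 6 members 5 had a negative difference (CTC minus tumor cell), with a median of -0.56 beside -0.06 for all genes tested. Without mouse 1168 the members' median was -0.38, close to the -0.34 of all genes in that setting. It turned to 0.09 without the tumor cell of 1168 alone, when the median of all genes was 0.83. With the mouse as a block, which the labels support since each pair comes from 1 animal, still 0 members passed, and 1 gene of all did. No member had CTC values that lay all below or all above the tumor cell values, against 65 of 4165 genes tested (1.56%). After rescaling to named protein-coding genes, which moved the median of all genes from -0.06 to -1.15, the groups of Ddx58, Parp14 and Oasl2 did not overlap, each lower in the CTCs; on that scale 8.98% of all genes tested did not overlap and 8.28% were lower in this way. After quantile normalization the groups of Ddx58 and Parp14 did not overlap, again lower in the CTCs, beside 5.07% of all genes and 2.59% in that direction.

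Within a mouse, 1 CTC was set against 1 tumor cell with no replicate, so the following counts compare libraries and carry no test. A member is counted as measured where either cell had at least 1 FPKM. In mouse 1168, 27 members were measured. The CTC was lower by at least 1 on the log2(FPKM + 1) scale for 21 of them, and for 24.9% of all 12396 genes measured in that mouse. It was higher by 1 or more for 0 members and for 22.7% of genes, and 6 members lay between. The members' median difference was -2.06 beside 0.04 for all genes. In mouse 1157 only 4 members were measured, and 1 of them, Adar, was lower by 1 or more (37.1% of genes were) and 0 higher (29% of genes). In mouse PDGF1, 4 were measured, of which 3 were lower (Parp14, Xaf1 and Ddx58; 59.9% of genes) and Samhd1 was higher (23.7% of genes). The medians were -0.51 for members and -0.62 for all genes in mouse 1157, and -2.13 and -1.18 in mouse PDGF1. Ddx58 was the 1 member measured in all 3 mice. In the plot of differences by mouse, only mouse 1168 has members in number.

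**Figure D2:**
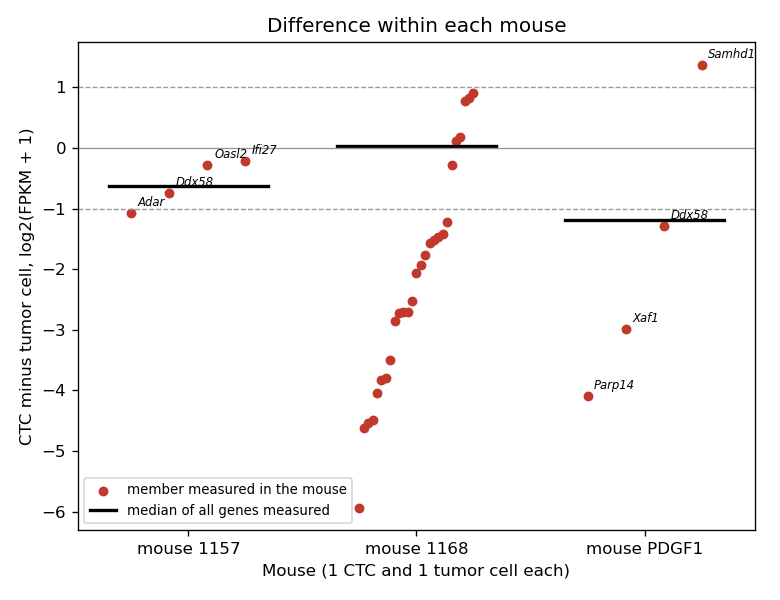
Difference of each measured member within each mouse, as log2(FPKM + 1) in the CTC minus that in the tumor cell (vertical axis), for mice 1157, 1168 and PDGF1; points are genes, black bars are the medians of all genes measured in that mouse, and dashed lines mark differences of 1 and -1. In mouse 1168, 21 of 27 members lie at or below -1 while the median of all genes is 0.04.

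Among the sensors, Ddx58, which encodes the viral RNA sensor RIG-I, read 0.329, 6.87 and 0.108 FPKM in the CTCs and 1.21, 17.45 and 1.70 FPKM in the tumor cells. The tumor cell was higher in each mouse, by 0.74, 1.23 and 1.28 on the log2 scale, but the CTC of 1168 lay above the tumor cells of both other mice, so the groups overlapped. In mice 1157 and PDGF1 every Ddx58 value lay under the receptor genes' 99th percentile of its cell. That percentile was 0.786 and 3.502 FPKM in these CTCs and 1.852 and 7.03 FPKM in these tumor cells. Across the groups the difference was -1.08 (SE 1.67, limma, adjusted p = 0.99994). With the mouse as a block the SE was 0.80, less than the difference, and the test still did not pass. Ifih1, which encodes the related sensor MDA5, was at 7.33 FPKM in the tumor cell of 1168 and at 0.0171 to 0.2545 FPKM in the other 5 cells.

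Of the 9 signalling factors and ubiquitin or ADP-ribose regulators, all were measured in mouse 1168 and 8 were lower in its CTC by 1 or more. Isg15, a ubiquitin-like protein that is attached to other proteins, read 0.134, 0.114 and 0 FPKM in the CTCs and 0, 11.5 and 0 FPKM in the tumor cells. Usp18, the protease that removes ISG15 and dampens receptor signalling, read 0.140, 0 and 0.0294 FPKM in the CTCs and 0, 21.45 and 0 FPKM in the tumor cells. For both genes a single cell, the tumor cell of mouse 1168, carried nearly all signal. In fragments, the CTC of that mouse had 2 for Isg15 and 0 for Usp18, against 362 and 1910 in its tumor cell, which was sequenced 1.79 times as deeply. After correction for depth Isg15 was 101.4-fold higher in the tumor cell (95% exact binomial counting interval 27.9 to 840.4) and Usp18 at least 357-fold higher, with 3 fragments in the CTC as the limit that a count of 0 allows. Such intervals and limits cover counting error only, since fragments from amplified RNA are not independent molecules.

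Ifi35, an interferon-induced leucine-zipper protein, read 0.0765, 8.33 and 0.0198 FPKM in the CTCs and 0, 25.8 and 0 FPKM in the tumor cells. Both cells of mouse 1168 were high and the tumor cell the higher of them, by 1.52 on the log2 scale. Parp14, a mono-ADP-ribosyltransferase, had another pattern, with 0.177, 1.84 and 0.00321 FPKM in the CTCs and 0.715, 6.56 and 16.15 FPKM in the tumor cells. It was lower in the CTC of each mouse, with differences of -1.41 in 1168 and -4.10 in PDGF1, and its highest value was outside mouse 1168. In mouse 1157 both Parp14 values lay under the receptor genes' 99th percentile of their cell (0.786 FPKM in the CTC and 1.852 FPKM in the tumor cell). Its mean log2 value was 0.58 ± 0.81 in CTCs and 2.60 ± 1.68 in tumor cells (SD, n = 3 each), a difference of -2.02 (SE 1.53, limma, adjusted p = 0.99994). With the mouse as a block the SE shrank to 0.77 and the unadjusted limma p was 0.00897, but the adjusted p of 0.697 did not pass; over all settings run for Parp14 the limma adjusted p ran from 0.697 to 0.99998.

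Dtx3l and Parp9 encode a ubiquitin ligase and its ADP-ribosyltransferase partner, and overlap in their exons on opposite strands. In the tumor cell of 1168 they were at 3.79 and 5.92 FPKM, against 0.609 and 0.0567 FPKM in its CTC. Trim25, a ubiquitin ligase that acts on RIG-I, had 217 fragments in the CTC of 1168 and 2596 in its tumor cell, 6.70-fold more per fragment sequenced (5.83 to 7.73). Trim30a had 1 and 361 fragments in these cells, a 202.2-fold difference with a wide interval (36.1 to 8010). Stat2, the STAT protein specific to type I and III interferon signalling, went the other way: 8.20 FPKM in the CTC of 1168 and 4.21 FPKM in its tumor cell, a tumor-to-CTC ratio of 0.514 (0.471 to 0.561). Stat2 was at 0.00576 to 0.0693 FPKM in the other 4 cells, which is 1 to 8 fragments.

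Of the 9 proteins that act on RNA or nucleotides, 6 were measured in mouse 1168, and 3 of these were lower in its CTC by 1 or more. Ifit1, which binds foreign RNA by its end, read 0.0890, 0 and 0.0188 FPKM in the CTCs and 0.175, 23.7 and 0.00984 FPKM in the tumor cells. Its fragments numbered 6, 0 and 2 against 5, 3291 and 1, so that the tumor cell of mouse 1168 was at least 615-fold above its CTC. Ifit3, a partner of Ifit1 in the same complex, read 0.02365, 2.02 and 0.0149 FPKM in the CTCs and 0.0560, 48.7 and 0.0312 FPKM in the tumor cells. The CTC of mouse 1168 did hold Ifit3, with 99 fragments, but its tumor cell had 24.1 times as much (19.8 to 29.75). Of the Ifit3 transcript, 51.2% of 50-base windows also occur in Ifit3b, so the value of Ifit3 may hold reads of that copy. Ifit2 stayed under 1 FPKM in every cell, with 0.838 FPKM in the tumor cell of 1168 as its highest value.

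Oasl2, of the oligoadenylate synthetase family, read 1.21, 0.0875 and 0 FPKM in the CTCs and 1.69, 6.09 and 0.277 FPKM in the tumor cells. Each tumor cell was above the CTC of its mouse, but the CTC of 1157 lay above the tumor cell of PDGF1. The tumor cells of 1157 and PDGF1 lay under the receptor genes' 99th percentile of their cell for Oasl2 (1.852 and 7.03 FPKM). The group difference was -1.11 (SE 0.86, limma, adjusted p = 0.99994). Oas1a and Oas2, which make oligoadenylates that activate RNase L, stayed under 1 FPKM in all cells, with 0.661 FPKM for Oas1a in the tumor cell of 1168 as the highest; 57.6% of the Oas1a windows of 50 bases are shared with Oas1g. Oas2 had 26 fragments in the tumor cell of 1168 and 0 in its CTC, at least 4.86-fold more. Those 26 fragments are 0.106 FPKM, under the receptor genes' 99th percentile of that cell (1.601 FPKM). The highest Oas2 value was in the CTC of mouse 1157, at 0.1145 FPKM or 14 fragments.

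The measured members of this group that differed by less than 1 within mouse 1168 were Eif2ak2, Adar and Samhd1. Eif2ak2, the kinase PKR that stops translation on double-stranded RNA, was at 3.82 FPKM in that CTC and 4.88 FPKM in the tumor cell of the mouse, and at 0.168 to 0.5405 FPKM elsewhere. Adar, which converts adenosine to inosine in double-stranded RNA, read 0.378, 4.66 and 0.1415 FPKM in the CTCs and 1.90, 2.32 and 0.00425 FPKM in the tumor cells. The CTC was above the tumor cell in mice 1168 and PDGF1 and below it in mouse 1157, and the group difference was -0.04 (SE 0.95, limma, adjusted p = 0.99994). Both Adar values of PDGF1 lay under the receptor genes' 99th percentile of their cell (3.502 FPKM in the CTC and 7.03 FPKM in the tumor cell). So did the value in the CTC of 1157 (0.786 FPKM). Samhd1, which degrades the nucleotides that reverse transcription needs, read 0.448, 10.6 and 2.70 FPKM in the CTCs and 0.418, 5.18 and 0.4255 FPKM in the tumor cells. It was the 1 tested member with a positive difference, 0.77 (SE 1.54, limma, adjusted p = 0.99994), and that difference was -0.0036 without the CTC of mouse 1168. In that mouse it was higher in the CTC by 0.91 and in PDGF1 by 1.38, and in mouse 1157 the cells were nearly level. Outside mouse 1168 every Samhd1 value lay under the receptor genes' 99th percentile of its cell, which was 3.502 FPKM in the CTC of PDGF1.

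Of the 5 membrane proteins, 4 were lower by 1 or more in the CTC of mouse 1168, among them the member with the largest difference there. That member, Rtp4, a transmembrane protein that helps receptors reach the cell surface, read 0.02665, 0.02295 and 0.0336 FPKM in the CTCs and 0.0632, 61.8 and 0.0176 FPKM in the tumor cells. All cells but one held 1 or 2 fragments of it, and the tumor cell of mouse 1168 held 4812. The ratio to its CTC was 2696, but with 1 fragment in the CTC the counting interval began at 483.6. Rtp4 shares exons on its strand with Gm45338, which matches 11.6% of its 50-base windows. Rsad2, the antiviral enzyme viperin, read 0.315, 0.0440 and 0.2655 FPKM in the CTCs and 0.0956, 13.5 and 0.331 FPKM in the tumor cells. Here the CTC of mouse 1168 had the lowest FPKM of all cells, with 5 fragments, while its tumor cell had 2762, a ratio of 309.5 (132.4 to 953.8).

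Ifitm3, which hinders fusion of viruses with cell membranes, read 0.156, 5.90 and 0.0477 FPKM in the CTCs and 0.381, 49.2 and 0.0502 FPKM in the tumor cells. Ifitm2, of the same family and also on chromosome 7, read 0.0878, 2.30 and 0 FPKM in the CTCs and 0, 18.0 and 0 FPKM in the tumor cells. Both were present in the CTC of mouse 1168 and higher in its tumor cell, with differences (CTC minus tumor cell) of -2.86 for Ifitm3 and -2.52 for Ifitm2. For Ifitm2, 48.5% of 50-base windows occur in other genes, 36.1% in Gm45717 on the same strand. Bst2, or tetherin, which holds budding viruses at the cell surface, differed least of this group: 4.21 FPKM in the CTC of 1168 and 3.81 FPKM in its tumor cell, a ratio of 0.908 (0.674 to 1.23) whose interval includes equality.

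Of the 4 GTPases, all were listed at 0 in the CTC of mouse 1168. Gbp3, a guanylate-binding protein, read 0.205, 0 and 0.1945 FPKM in the CTCs and 0.204, 13.3 and 0.0195 FPKM in the tumor cells. Gbp2 of the same family was at 2.80 FPKM in the tumor cell of 1168 and at most 0.624 FPKM in the others. Mx1 and Mx2, dynamin-like proteins that block incoming viruses, were under 1 FPKM everywhere. Mx1, which many laboratory strains carry in a defective form, was at 0 in both cells of mouse 1168 and highest, at 0.344 FPKM or 10 fragments, in the tumor cell of mouse 1157. Mx2, which the GENCODE annotation lists as a polymorphic pseudogene, was highest in the CTC of mouse 1157 at 0.3515 FPKM. So the tumor cell of mouse 1168, with 3291 fragments of Ifit1 and 4812 of Rtp4, held 0 of Mx1.

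Ifi27, a small hydrophobic protein of mitochondria and the nuclear envelope, was the most abundant member and read 1.22, 664.2 and 0.691 FPKM in the CTCs and 1.58, 588 and 0.726 FPKM in the tumor cells. Unlike Rtp4 or Ifit1 it was at like levels in both cells of mouse 1168, the CTC being higher by 0.17, and its group difference was -0.02 (SE 3.65, limma, adjusted p = 0.99994). The spread between mice was far larger: its mean log2 value was 3.76 ± 4.87 in CTCs and 3.79 ± 4.70 in tumor cells (SD, n = 3 each). Xaf1, a partner of the apoptosis inhibitor XIAP, read 0.408, 0.0263 and 0.0445 FPKM in the CTCs and 0.108, 22.9 and 7.28 FPKM in the tumor cells. With Parp14 it was 1 of the 2 members at 5 FPKM or more in the tumor cell of PDGF1, and its lowest value was in the CTC of mouse 1168. Ifi44 had 29 fragments in the CTC of 1168 and 827 in its tumor cell, 16.0-fold more (11.04 to 24.01).

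Within mouse 1168 the 27 measured members can be described in 3 sets. For 12 members the CTC was under 0.2 FPKM while the tumor cell had 1 FPKM or more, and 7 of them reached 10 FPKM there: Isg15, Usp18, Ifit1, Rsad2, Rtp4, Gbp3 and Xaf1. Genes outside the list met this rule too. Their share of all genes measured in that mouse was not computed, so these counts are not a trait of the members. In the next 9, Ddx58, Ifih1, Trim25, Parp14, Dtx3l, Ifi35, Ifit3, Ifitm2 and Ifitm3, the CTC held 0.2545 to 8.33 FPKM and was lower than the tumor cell by more than 1 on the log2 scale. The other 6, Stat2, Eif2ak2, Adar, Samhd1, Bst2 and Ifi27, differed by less than 1 in either direction. These sets were drawn from the values themselves and are not tested. The response element core was found in 11 of the 17 members with a window that were lower by 1 or more in this CTC (64.7%) and in 4 of the 7 other members with a window (57.1%). The gamma-activated site was found in 2 of those 17 (11.8%) and in 6 of those 7 (85.7%). Those 7 include Ifit2 and Oas1a, which were under 1 FPKM in both cells and whose windows held the site. They read 0.0174 and 0 FPKM in the CTC and 0.838 and 0.661 FPKM in the tumor cell, so the 7 are not all members at like levels. The sets come from the same values, and the contrast in sites was not tested. The scatter of both cells of the mouse shows the first set along its left edge.

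**Figure D3:**
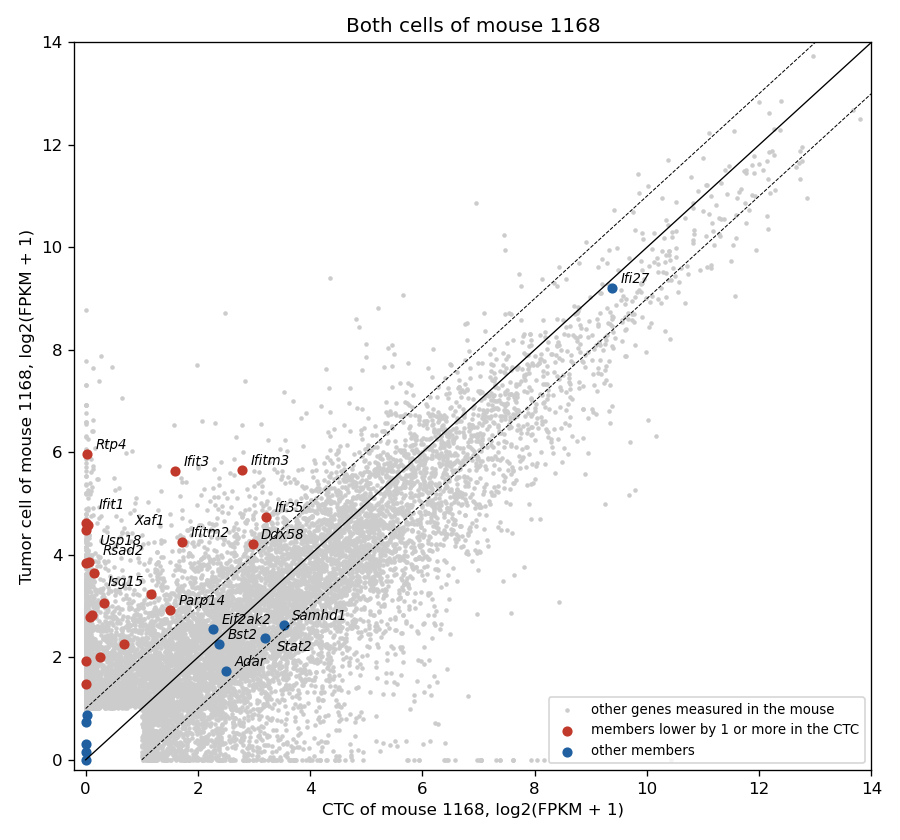
Each gene measured in mouse 1168 and all 32 members, with log2(FPKM + 1) in its CTC on the horizontal axis and in its tumor cell on the vertical axis; red points are the 21 members lower by 1 or more in the CTC, blue points the other 11 members (6 measured and 5 under 1 FPKM in both cells), and grey points all other genes. The solid line marks equal values and the dashed lines a difference of 1; Rtp4, Ifit1, Usp18 and Xaf1 lie at the left edge and Ifi27 lies near equality.

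The rest of the pathway was followed in 4 further lists. Of 15 interferon and receptor genes and 14 nucleic acid sensors and adaptors none could be tested. Of 13 transducers and transcription factors 3 were tested, and of 33 other induced genes 6 were tested; in limma 0 passed after adjustment in either list, and 0 had an unadjusted p under 0.05. In mouse 1168, 54 of the 75 genes were measured, with 32 lower and 7 higher by 1 or more in the CTC and a median of -1.34. Of all genes measured in that mouse 24.9% were lower and 22.7% higher, with a median of 0.04. By list, 2 of 5 measured were lower and 1 higher for ligands and receptors, 5 of 11 lower and 2 higher for transducers, 5 of 11 lower and 1 higher for sensors, and 20 of 27 lower and 3 higher for other induced genes.

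The 3 receptor chains of highest FPKM were found in both cells of mouse 1168. For Ifnar2, a chain of the type I receptor, its CTC had 70.4 FPKM and its tumor cell 17.5 FPKM, and for Ifngr2, of the type II receptor, 36.7 and 24.8 FPKM. Il10rb, a chain shared with the type III receptor, was at 2.59 and 15.4 FPKM. Elsewhere these 3 chains were at 0.0227 to 0.418 FPKM. Irf3, a factor activated by the sensors, read 42.7 FPKM in that CTC and 20.15 FPKM in that tumor cell, and the adaptor Mavs at 10.9 and 3.07 FPKM. Irf7, itself an induced factor, was at 0.0403 FPKM in this CTC and 22.5 FPKM in its tumor cell, and Zbp1, an induced nucleic acid sensor, at 0 and 5.92 FPKM. Tbk1, the kinase that activates Irf3, was at 3.28 and 6.87 FPKM.

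Stat3 and Irf1, both transcription factors of the transducer list, had positive group differences of 1.14 (SE 2.34) and 0.29 (SE 0.92), neither larger than its error in the fit without the block. Among other induced genes, Ifi27l2a read 560.5 FPKM in the 1168 CTC and 187.1 FPKM in the 1168 tumor cell, B2m, the invariant chain of class I antigen presentation, at 916.6 and 2761 FPKM, and Lgals3bp at 6.12 and 166.9 FPKM. The immunoproteasome subunits Psmb8 and Psmb9 read 50.8 and 69.9 FPKM in that CTC and 106 and 25.8 FPKM in that tumor cell. The CTC of mouse 1157 had 740.3 FPKM of Psmb8 beside 0.839 FPKM of Psmb9. Shisa5 and Trim21 were tested as well, with differences of -0.04 (SE 2.55) and -0.74 (SE 0.71).

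Most measured markers of microglia, macrophages and leukocytes were also higher in the tumor cell of mouse 1168, beside the members. Of 18 markers of microglia and macrophages, 2, 7 and 1 reached 1 FPKM in the CTCs and 4, 15 and 3 in the tumor cells, with summed levels of 5.23, 246.6 and 2.27 FPKM against 13.2, 2572 and 26.2 FPKM. In mouse 1168, 14 of the 16 measured were lower in the CTC by 1 or more, beside 24.9% of all genes measured in that mouse. Adgre1 was higher in the CTC, at 1.55 FPKM against 0.428 FPKM in the tumor cell. Lyz2 was at 174.3 FPKM in that CTC and 1202 FPKM in its tumor cell, Ctss at 19.4 and 672 FPKM and Tyrobp at 28.4 and 346.4 FPKM. C1qa, Aif1 and Tmem119 were at 0 in the CTC and at 13.04, 7.21 and 0.814 FPKM in the tumor cell, where Cx3cr1 was at 0.0301 and P2ry12 at 1.02 FPKM. Of 20 leukocyte markers 1, 1 and 1 reached 1 FPKM in the CTCs and 4, 13 and 1 in the tumor cells, with sums of 14.4, 6.98 and 3.94 FPKM against 10.9, 348.2 and 3.11 FPKM; Cd52 read 0.377 FPKM in the CTC of 1168 and 202.8 FPKM in its tumor cell. Lymphocyte markers at 1 FPKM numbered 0 of 11 in both cells of that mouse, and endothelial markers 1 and 4 of 10. The endothelial markers summed higher in the CTC, to 37.95 FPKM against 21.88 FPKM in the tumor cell. Egfl7 made up most of the CTC's sum, at 37.17 FPKM against 10.15 FPKM. In the same tumor cell the progenitor markers Olig2 and Sox2 were at 10.3 and 64.8 FPKM, against 42.5 and 129.1 FPKM in the CTC. Their list summed to 277.9 FPKM in the tumor cell against 613.3 FPKM in the CTC. Of its 12 genes 9 were higher in the CTC by 1 or more, beside 22.7% of all genes measured in that mouse. Another 2, Sox2 among them, differed by less, and 1 was lower in the CTC by 1 or more. That 1 was Sox10, at 6.54 FPKM in the CTC and 18.3 FPKM in the tumor cell. Whether either sample held transcripts of other cells, and what part these had in the members' levels, was not tested. With 1 sample on each side such a part cannot be told apart from a difference between CTC and tumor cell. The bars of marker shares set these lists beside the members.

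**Figure D4:**
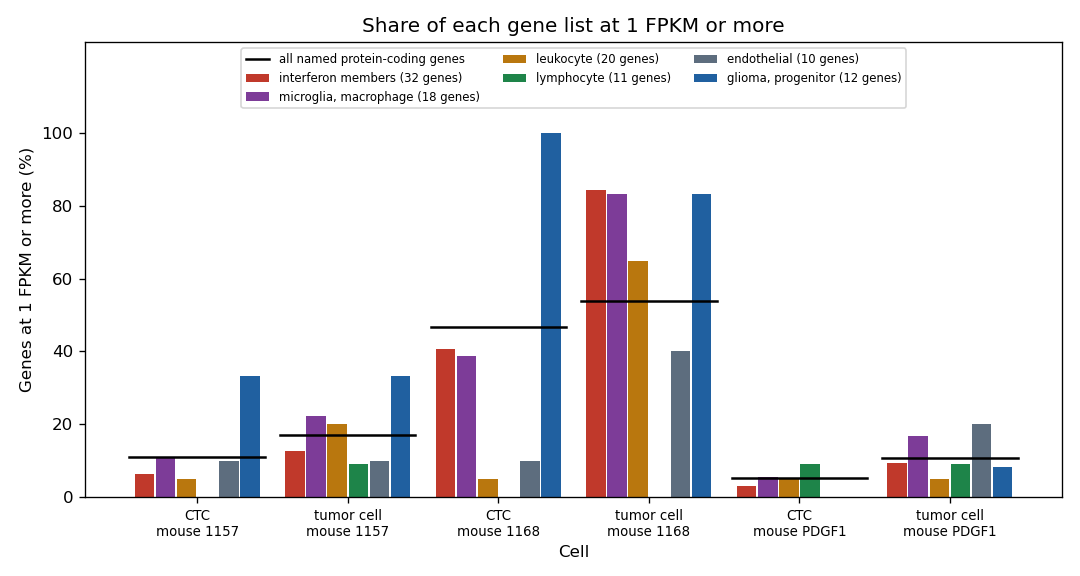
Share of each list's genes at 1 FPKM or more (vertical axis, percent) in each of the 6 cells, for the 32 interferon-stimulated genes and 5 marker lists, with black lines for all named protein-coding genes of the cell. In the tumor cell of mouse 1168, 27 of 32 members, 15 of 18 microglia and macrophage markers and 13 of 20 leukocyte markers reached 1 FPKM, and in its CTC 13, 7 and 1.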

How the data were processed

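RNA of 6 mouse cell samples was sequenced, and the authors deposited 1 table of FPKM values with 45038 rows. Per the submitters' processing notes, STAR 2.4.2a, Cufflinks 2.2.1 and the GRCm38 build were used; the sources used here do not say what was done with reads that matched several places. Rows with date-like names (27) or repeated names (211) were left out, and 41450 of the remaining 44804 matched GENCODE mouse release M21, which supplied coordinates, gene classes and shared 50-base windows.

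Groups and mice came from the sample titles. limma 3.58.1 in R 4.3.3 was run with a mean-variance trend, two-sided, on log2(FPKM + 1) of the 4165 genes that reached 1 FPKM in 3 or more of 6 cells, with Benjamini-Hochberg adjustment over all of them and a threshold of 0.05. A fold on this scale understates changes of low genes. Same-numbered cells come from the same mouse, and their deviations from the group means correlated at 0.18 (1157), 0.69 (1168) and 0.43 (PDGF1) across genes. Cells of different mice correlated at -0.62 to 0.42, the highest being the CTC of PDGF1 with the tumor cell of 1157. Since the labels give the animal, the mouse was used as a block in an alternative fit. With 3 cells against 3, an exact permutation test cannot go below p = 0.1, so none was run on single genes.

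Read counts were not used here. Depth was recovered, after the data were seen, from low values, which are whole multiples of what 1 fragment is worth: 89.0% of 2665 low values of 1434 genes lay within 0.1 of a whole number, where evenly spread values would give 20%. The relative depths of pairs of cells agreed to 0.0049 on the log2 scale; the absolute depth assumes fragments of 200 bases. Fragment numbers could be given for 13 members, and the other 19 are given in FPKM only.

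The members and lists were chosen with earlier results of these data known. Members received all 6 values where they passed the filter or reached 10 FPKM in any cell; genes of the other pathway lists were named where they passed the filter or were among the 3 highest of their list. The values of 1 gene that this rule names are not reported here. Proteins were not analysed here. Alternatives were another pseudocount, other filters, scalings, the block, and leaving out cells or mice.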

Additional observations from a re-analysis of the deposited data

How the results depend on the processing

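The count of members past the threshold was 0 in each of the 14 alternatives that could be run, and Ddx58, Parp14 and Oasl2 kept a negative difference in all of them. A filter at 5 FPKM in 3 cells left 0 members to test. In the paired fit, with the mouse as a replicate block, 0 members passed and the median difference of tested members was -0.56, as without it. That median was -1.05 with a pseudocount of 0.1, beside -0.31 for all genes tested. It was -0.31 after quantile normalization (all genes -0.06) and -1.95 after rescaling to named protein-coding genes (all genes -1.15). Without both cells of mouse 1168 it was -0.38 (all genes -0.34). When 1 cell was left out it ran from -1.47 to 0.09, and the median of all genes from -1.09 to 0.83. Adar had a difference of 0.04 with a pseudocount of 0.1, 0.17 after quantile normalization, 0.48 without mouse 1157, and -0.76 to 0.39 without 1 cell. Ifi27 had 0.21 after quantile normalization, 0.07 without mouse 1157, and -2.83 to 2.68 without 1 cell. Samhd1 ran from -0.0036 to 1.50 without 1 cell. The cause of these changes was not tested.

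Members lower by 1 or more in the CTC of mouse 1168 numbered 14 at a difference of 2 and 17 among those at 5 FPKM, and 21 with a pseudocount of 0.1 or after rescaling. With that pseudocount 1 member, Samhd1, was higher there. In mouse 1157 the lower members numbered 2 with a pseudocount of 0.1, 0 at a difference of 2, 0 at 5 FPKM and 4 after rescaling. The 1 higher member of PDGF1 became 0 at a difference of 2 and 0 at 5 FPKM. The difference in summed FPKM was -120 without Ifi27, an alternative chosen after seeing the data, and -334.5 to 226.4 without 1 cell. After rescaling the difference was -1101 in another unit, since named protein-coding genes were scaled to the same sum in each cell. Its size cannot be set beside the FPKM values. Members whose groups did not overlap numbered 2 after quantile normalization (5.07% of all genes tested) and 3 after rescaling (8.98%). Genes called over the whole table numbered 1 under the block, 1 after rescaling and 0 in the other alternatives, and those at an unadjusted limma p under 0.05 numbered 217 under the block, 147 after rescaling and 93 after quantile normalization, against 7. In mice 1157 and PDGF1 only 1.5% to 14% of named protein-coding genes lay above the receptor genes' 99th percentile, which limits what can be said of members under it.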
